A study of Drosophila melanogaster with 57 samples.

Results

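The genes described here are 49 *Drosophila* genes known for their work in the germline stem cell (GSC) and its niche, out of 13981 protein-coding genes on the assembled chromosomes. They were listed by symbol for their known roles, by a rule that used no measured value although earlier results of these data were known, and each was found in the annotation, 47 under the listed symbol and 2 (*nos* and *Dl*) under the names *nanos* and *Delta*. Of the 49, 18 were classed as germline factors. The other 31 were classed as genes of the somatic niche and of the signalling pathways that link the niche with the GSC. The classes are not exclusive. BMP receptors and transducers act in the GSC, and the paper reports a form of *hts* in somatic support cells. What was measured for each is how much of its gene body lies inside the 3356 regions that the authors deposited as clusters of piRNA reads. A gene body is the span between the outermost annotated ends of a gene, introns included.

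The study sequenced small RNAs from 6 groups with 3 libraries each, to compare piRNAs between cell types of the ovary. These groups were whole ovaries expressing *UASp-tkvM1* (an active BMP receptor, driven in germ cells by *nos-gal4*), whole ovaries of *bamΔ86* mutants, whole ovaries of *bgcn20093* and *bgcn20915* mutants, cultured GSCs, the somatic support cells (SCs) grown with those GSCs, and *w1118* wild-type ovaries. The cultured GSCs and SCs came from 1 line, labelled *vasa-GFP;hs-bam;bamΔ86* and homozygous for *bamΔ86*, and were parted by sorting on GFP, so both carried this *bam* allele, and whole ovaries of every genotype also held somatic cells. The labels give no age for the flies. The authors scanned reads of piRNA length with a sliding window and deposited 1 list of regions for the whole study. The paper states as a caveat that its piRNAs were identified by length. No pull-down of the proteins that bind piRNAs and no check of the 3′ end modification was done. Whether the reads behind a region over a gene are piRNAs was therefore not tested. The list holds a start and an end for each region and no read count, strand, or sample, so a region cannot be assigned to a genotype or cell type, the depth behind it is unknown, and no member can be shown by group. No expression values were analysed here, so the assignment of a gene to germline or niche rests on its known role.

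In the germarium, cap cells of the niche send the BMP ligands Dpp and Gbb to the GSC, where the receptors Tkv, Sax, and Put and the transducers Mad and Med keep the differentiation gene *bam* off. The daughter that leaves the niche, the cystoblast (CB), switches *bam* on, and Bam together with its partner Bgcn drives the CB into cyst divisions. RNA-binding repressors such as Nos, Pum, and Brat act on the mRNAs of these cells. JAK/STAT, Hedgehog, Notch, EGFR, and ecdysone signals act mainly in the somatic cells, and E-cadherin anchors the GSC to the cap cells. piRNAs are small RNAs bound by PIWI proteins that silence transposable elements (TEs), and besides clusters of TE remnants they also arise from mRNAs, often from the 3′ untranslated region (UTR). Their first base is typically a U, which reads as T in DNA.

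The borders of the regions are single positions in the genome, and 12 of them inside members are shown here because the bases on either side are the only sequence detail that the list carries. They belong to the 3 widest overlaps per arm on 2L, 3L, 3R, and X that have a border inside the member with at most 30 bases of UTR in the window, a limit that left out wider overlaps such as that of *mei-P26*. Each line holds 50 bases of the dm6 reference on the strand of the gene, 5′ to 3′, and capitals mark the 25 bases inside the region.
*brat* chr2L:19139041-19139090 (+): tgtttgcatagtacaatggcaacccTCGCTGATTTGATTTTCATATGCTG
*chinmo* chr2L:1694214-1694263 (+): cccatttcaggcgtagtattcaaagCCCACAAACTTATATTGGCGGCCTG
*chinmo* chr2L:1690071-1690120 (+): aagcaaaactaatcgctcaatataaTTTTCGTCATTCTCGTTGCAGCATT
*alpha-Spec* chr3L:1793413-1793462 (-): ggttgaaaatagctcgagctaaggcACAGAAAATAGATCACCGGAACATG
*bab2* chr3L:1170855-1170904 (-): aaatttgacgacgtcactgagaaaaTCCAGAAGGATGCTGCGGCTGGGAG
*dally* chr3L:8828819-8828868 (+): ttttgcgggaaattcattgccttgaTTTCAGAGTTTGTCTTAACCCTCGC
*Stat92E* chr3R:20539229-20539278 (-): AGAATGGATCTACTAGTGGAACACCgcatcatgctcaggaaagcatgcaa
*twin* chr3R:24216383-24216432 (-): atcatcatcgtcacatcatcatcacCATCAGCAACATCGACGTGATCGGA
*pum* chr3R:9073280-9073329 (-): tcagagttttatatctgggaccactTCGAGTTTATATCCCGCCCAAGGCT
*br* chrX:1658714-1658763 (+): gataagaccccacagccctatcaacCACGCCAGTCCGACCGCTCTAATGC
*arm* chrX:1897281-1897330 (-): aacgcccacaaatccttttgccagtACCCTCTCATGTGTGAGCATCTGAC
*br* chrX:1582108-1582157 (+): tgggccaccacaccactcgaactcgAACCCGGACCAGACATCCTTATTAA
Of these windows, 11 cross the border that lies toward the 5′ end of the gene, and in 5 of the 11 (*brat*, *bab2*, *dally*, *pum*, and 1 of the *chinmo* windows) the first base inside the region was a T. The *Stat92E* window crosses the border on the 3′ side. The windows of *brat*, *alpha-Spec*, *bab2*, *dally*, *twin*, *pum*, *br*, and *arm* lie in introns, that of *Stat92E* lies in coding sequence, and the *chinmo* windows run across the start of an exon.

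A region shared at least 1 base with 34 of the 49 members (69.4%), and 13 members (26.5%) had at least 50% of the gene body inside regions. Among all protein-coding genes, 43.8% met a region and 33.2% had at least 50% of the body inside regions. Protein-coding genes have a median length of 2163 nt and the members 16402 nt, and longer genes met regions more often, with 39.5% of protein-coding genes shorter than 5 kb met, 56.1% of those from 5 to 20 kb, and 57.5% of those longer than 20 kb. Each member was therefore set beside the 100 other protein-coding genes of its chromosome arm that were nearest to it in length. From those genes 26.3 of the 49 members would be met, against 34 counted, and 11.8 would have at least 50% of the body covered, against 13 counted. Without the 10 members on 2R, 8 had at least 50% of the body covered. Without spread over samples, these differences have no test, and they are given as descriptions.

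**Figure D1:**
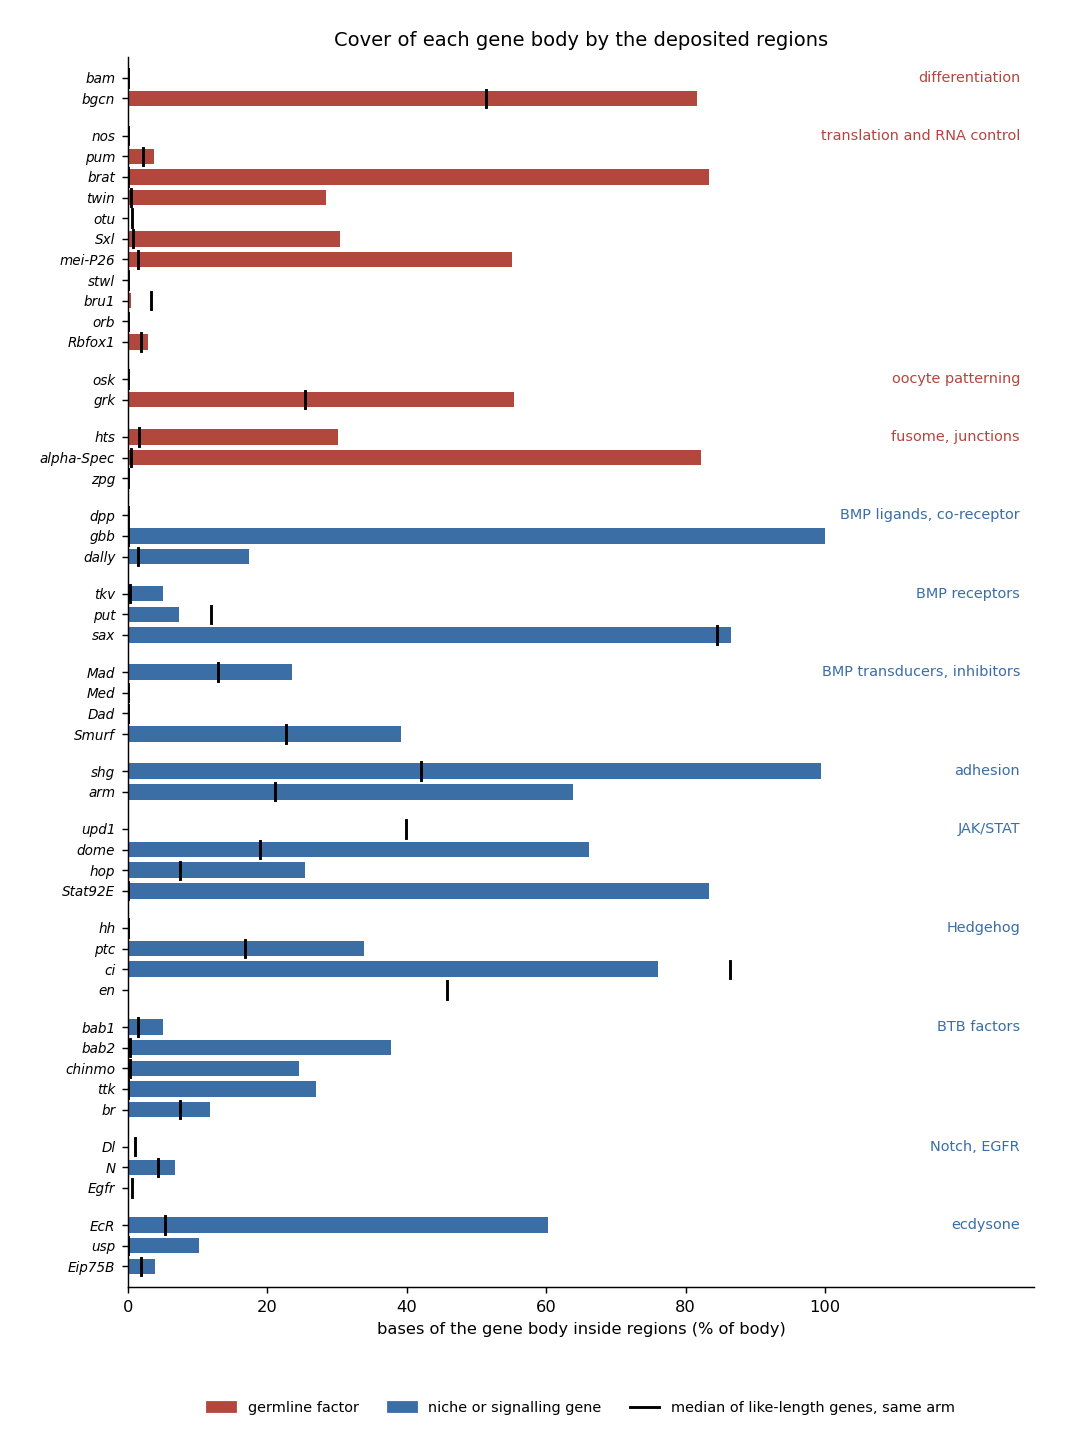
Percent of the gene body inside deposited regions for each of the 49 genes, ordered by role, with germline factors in red and niche or signalling genes in blue. Black ticks mark the median of 100 protein-coding genes of the same arm and like length (fewer on chromosome 4). Cover ran from 0% in 15 genes to 100% in *gbb*, and genes of 1 role, such as *bam* and *bgcn*, often differed widely.

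Germline factors were met in 11 of 18 cases (61.1%), against 23 of 31 niche and signalling genes (74.2%). The like-length genes of each class gave 49.4% for the germline class and 56.0% for the signalling class, that is 8.89 germline factors and 17.4 niche and signalling genes, so the counts of both classes stood above their own expectation. The median cover of the gene body was 3.33% over the germline factors and 17.4% over the niche and signalling genes, with a range of 0% to 83.4% and of 0% to 100%, and the median over all protein-coding genes was 0%. The medians of the like-length genes averaged 4.96% for the germline class and 14.03% for the signalling class, a gap in the same direction. The germline median rests on where the zeros fall. It was 30.3% without the genes on 3R, where *bam*, *nos*, *orb*, and *osk* lie, 16.1% without those on 3L, and 1.70% without those on 2R, and the signalling median was then 24.1%, 23.6%, and 10.2%. Without 3R the order of the classes was therefore turned round. It was also turned round among genes longer than 20 kb, where germline factors had a median of 28.5% with 8 of 9 met, against 6.69% with 10 of 13 met for niche and signalling genes. From 5 to 20 kb the medians were 81.7% for 3 germline factors and 36.6% for 12 niche and signalling genes. Below 5 kb they were 0% and 5.08%. In that band 1 of 6 germline factors was met (2.6 from like-length genes) and 3 of 6 niche and signalling genes (3.23). Both counts there stood below expectation.

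**Figure D2:**
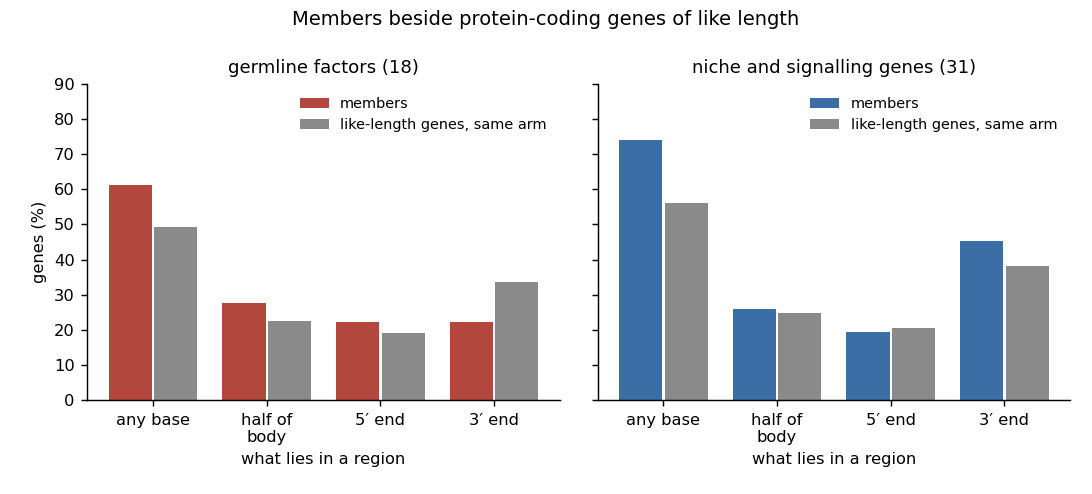
Percent of genes with any base, at least 50% of the body, the 5′ end, or the 3′ end inside a region, for the 18 germline factors and the 31 niche and signalling genes (coloured bars) and for protein-coding genes of the same arm and like length (grey bars). Members of both classes were met more often than like-length genes, and the 3′ end lay in a region in 22.2% of germline factors and 45.2% of niche and signalling genes.

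The differentiation genes *bam* and *bgcn*, whose mutants were sequenced, were opposite cases. The *bam* ovaries, the cultured GSCs, and the SCs carried *bamΔ86*, and the *bgcn* ovaries carried *bgcn* alleles. Whether these alleles change the reads at the loci was not tested. *bam* (FBgn0000158, 3R, 25243039 to 25245109, minus strand) shared no base with a region, and the nearest one lay 630 nt away. *bgcn* (FBgn0004581, 2R, 23853270 to 23858921, minus strand), which encodes a helicase-like partner of Bam, had 4615 of 5652 nt inside 2 regions (81.7%). Together they held 99.1% of its coding bases, its 5′ end, and its 3′ end, and left out most of the intron sequence, of which 32.8% was covered. The region at the 3′ end of *bgcn* was 16332 nt wide, met 12 other genes, and among these held the whole of *gbb*, the neighbouring gene for a BMP ligand. It was the only region that met 2 members, so the cover of *bgcn* and *gbb* is not independent.

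Of the 11 germline genes grouped under translation and RNA control, 7 were met, where like-length genes gave 5.42. The group is a loose one that also holds *otu* and *stwl*. *brat* (2L, 19133816 to 19179758), whose product is an NHL-domain repressor that acts with Pum, had the highest cover of the class, 83.4%, nearly all of it in 1 region of 37878 nt that lay wholly inside the gene. That region held intron and exon alike, with 85.6% of the intron bases and 77.7% of the exon bases of *brat* inside regions. *mei-P26* (X, 9163255 to 9189309), another gene of the NHL family, had 55.1% cover by 1 region of 14365 nt, which took in every coding base but ended inside the long 3′ UTR, with 9242 of 18494 nt covered. *Sxl*, the RNA-binding master gene of sex determination, met 3 regions with 30.4% cover.

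*pum* and *Rbfox1* showed a narrower overlap. *pum* (3R, 9066343 to 9237682), the partner of Nos in translational repression, is 171340 nt long and had 3.75% of its body in a region, but 4060 of the 4602 nt of its 3′ UTR (88.2%) and 39.8% of its coding bases. *Rbfox1* (3L, 10481412 to 10594012), a regulator of splicing and translation, had 2.91% of its body in 1 region of 3282 nt that lay fully within the 3′ UTR, apart from 0.0307% of its coding bases. The region covered 89.4% of the *Rbfox1* 3′ UTR and no intron base. In both genes the region stopped short of the annotated 3′ end.

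*twin*, which encodes the CCR4 deadenylase, met 1 region of 7143 nt that lay entirely in introns, so that 35.1% of its intron bases and no exon base were covered. This region also met another gene, *CG17786*. *bru1*, for the translational repressor Bruno, had only the 679 nt at its 5′ end in a region (0.490%). The remaining members of the group had no shared base: *nos* lay 15640 nt from the nearest region, *otu* 4139 nt, *orb* 809 nt, and *stwl* 114438 nt. *otu* encodes a deubiquitinase needed in oogenesis, *orb* a cytoplasmic polyadenylation factor, and *stwl* a chromatin protein of the GSC.

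Of the oocyte-patterning genes, *osk* had no shared base and a distance of 1058 nt to the nearest region, whereas *grk*, for the TGF-alpha-like ligand Gurken, had 55.4% of its body and its whole 3′ UTR in a region of 13644 nt, only 10.2% of which lay in *grk*. The only other gene that this region met was *Akap200*. Of the genes of the fusome, the membranous organelle that marks GSCs and cysts, *alpha-Spec* (3L, 1778485 to 1795328) had 82.2% of its body and 99.6% of its coding bases covered, and *hts*, the adducin used to stain the fusome, had 30.1% of its body and 70.3% of its coding bases covered. *zpg*, the germline gap junction gene, had none and lay 1763 nt from a region.

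Among BMP ligands, *gbb* (2R, 23851562 to 23853247) was the single member with its whole body in a region. Over all protein-coding genes 21.3% were covered in full, and the like-length genes gave 4.60 of the 49 members, against 1 counted. *dpp*, the main niche ligand, had no shared base over its 31452 nt and lay 28447 nt from the nearest region. *dally*, the glypican that holds Dpp near the niche, met 1 region of 11086 nt in an intron near its 5′ end, with 18.7% of its intron bases and no exon base covered. This region also met another gene, *CG32026*.

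All 3 BMP receptor genes were met, where like-length genes gave 1.77 of the 3. *tkv* (2L, 5219000 to 5271384, minus strand), the receptor whose active form was expressed in 1 of the ovary groups, had 2670 of 52385 nt in a region (5.10%), and this stretch was its last exons, with 82.2% of the coding bases and the whole 3′ UTR. Intron bases of *tkv* were covered to 0.169%. Whether reads from the *UASp-tkvM1* transgene entered the region over *tkv* was not tested. The type I receptor gene *sax* had 86.5% of its body covered, all but its 5′ end, close to the 84.5% median of like-length genes on 2R. *put*, for the type II receptor, had only the 490 nt at its 5′ end covered (7.34%), in a region of 2208 nt that continued into the neighbouring genes *CG7886* and *His4r*.

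Of the transducers and inhibitors of the pathway, *Mad*, the SMAD that Tkv phosphorylates, had 23.6% of its body and 98.3% of its coding bases covered, and *Smurf*, the ubiquitin ligase that limits the signal, had 39.2% and 96.0%. Both overlaps included the 3′ end and the whole 3′ UTR. *Med*, the co-SMAD gene, had no shared base although a region lay 139 nt away, the shortest distance among the 15 genes that were not met. *Dad*, the inhibitory SMAD gene that BMP signalling induces, lay 5577 nt away.

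Both adhesion genes were met and covered widely, where like-length genes gave 1.26 of them met. *shg* (2R, 21049654 to 21057197), for E-cadherin, had 7500 of 7544 nt in a region (99.4%), and *arm*, for beta-catenin, had 63.9% of its body and 98.8% of its coding bases. Like-length genes of the same arms had medians of 42.1% for *shg* and 21.1% for *arm*. Of the JAK/STAT genes, the ligand gene *upd1* had none and lay 66504 nt from a region, and the other 3 were met, where like-length genes gave 2.05 of the 4. The receptor gene *dome* had 66.2% of its body and 99.2% of its coding bases covered, including its 5′ and 3′ ends, the kinase gene *hop* had 25.5% of its body, and the transcription factor gene *Stat92E* (3R, 20535323 to 20552311) had 83.4%, where like-length genes of 3R had a median of 0%.

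In the Hedgehog pathway the ligand gene *hh* (3177 nt away) and *en*, the homeobox gene active in *hh*-expressing cells (49375 nt away), were not met, whereas the receptor gene *ptc* and the effector gene *ci* were met over 33.9% and 76.0% of their bodies. Like-length genes gave 2.59 of the 4 met. Like-length genes around *ci* on chromosome 4 had a median of 86.3%, above *ci* itself, and those around *en* on 2R had 45.8%.

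All 5 genes for BTB factors, transcription factors with a protein-protein interaction domain, were met, where like-length genes gave 2.82 of the 5, but none reached 50%. These genes are long, with a median of 53425 nt. *bab2* had the most, 37.7%, followed by *ttk* with 27.1%, *chinmo* with 24.6%, *br* with 11.8%, and *bab1* with 5.01%. *chinmo* and *Sxl* were the members with 3 regions each. Of the Notch and EGFR genes, the receptor gene *N* had 6.69% of its body in a region of 2499 nt that ended exactly at its annotated 3′ end and held its whole 3′ UTR, whereas *Dl* (120395 nt away, the farthest of all) and *Egfr* (4625 nt away) were not met, where like-length genes gave 1.63 of the 3 met. Of the ecdysone genes, *EcR* (2R, 6087873 to 6169087), the hormone receptor gene, had 48991 of 81215 nt in 2 regions (60.3%), the largest number of bases in any member, which came mostly from introns at its 5′ side. Its widest region spanned 54574 nt, met 25 other genes, many of them tRNA genes, and neither region held any of its 3′ UTR. Its partner *usp* had 10.2%, at the 5′ end, in sequence that other genes span as well, and *Eip75B*, an early ecdysone target, had 3.83%. All 3 were thus met, where like-length genes gave 1.64.

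**Figure D3:**
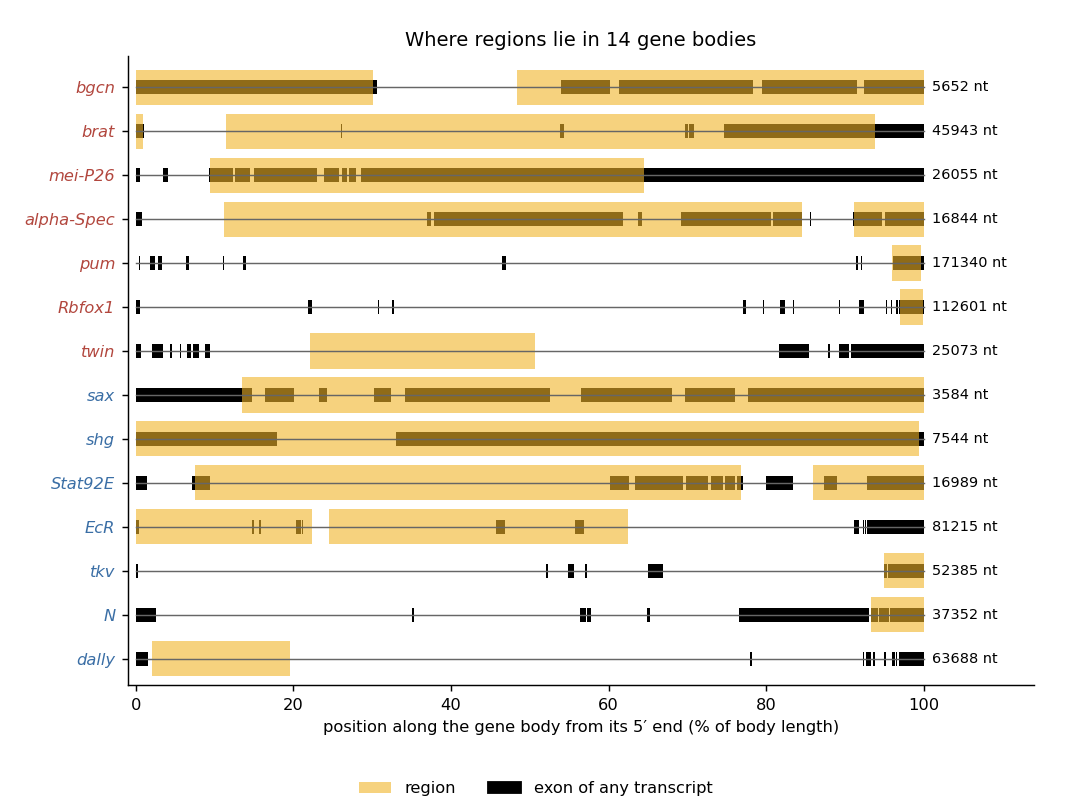
Exons (black) and deposited regions (yellow) along 14 gene bodies, each scaled to 100% of its length from the 5′ end, with the length in nt at the right. Regions filled most of *bgcn*, *brat*, *alpha-Spec*, *sax*, and *shg*, lay over the last exons of *pum*, *Rbfox1*, *tkv*, and *N*, and lay between exons in *twin* and *dally*. Other genes that a region met, such as *CG17786* in *twin* and *CG32026* in *dally*, are not drawn.

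The overlaps were spread unevenly over the parts of the genes. Pooled over all members, regions held 42.8% of exon bases and 12.5% of intron bases, and by part 18.1% of 5′ UTR bases, 47.2% of coding bases, and 49.3% of 3′ UTR bases. Over all protein-coding genes the values were 37.8% for exons, 21.4% for introns, 25.2% for 5′ UTRs, 38.4% for coding sequence, and 43.7% for 3′ UTRs. Averaged over the 48 members with introns, 37.4% of exon and 18.8% of intron bases were covered, whereas their like-length genes had 32.1% and 21.5%. The germline factors gave 33.8% for exons and 16.2% for introns (like-length genes 30.2% and 21.6%), and the niche and signalling genes 39.6% and 20.3% (like-length genes 33.3% and 21.4%). Among the 33 met members with introns, exons were covered more than introns in 24 (72.7%), as against 37.5% of the 5333 protein-coding genes with introns and both UTRs that met a region. Exon and intron cover are equal in a gene that lies wholly inside regions, as 2982 of all 13981 protein-coding genes did, intronless genes included. The 5333 genes are not matched to the members on length.

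**Figure D4:**
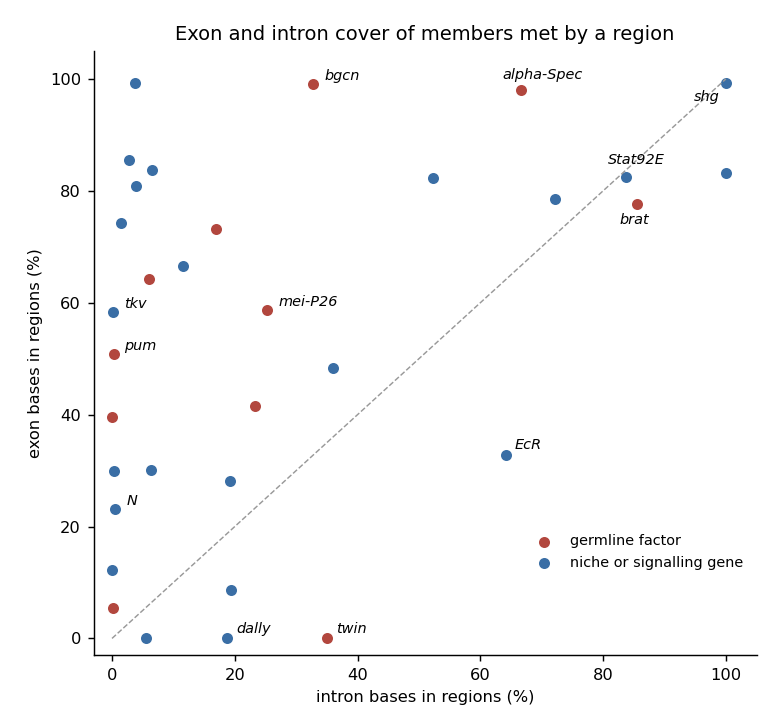
Percent of exon bases (vertical axis) against percent of intron bases (horizontal axis) inside regions for the 33 met members with introns, coloured by class, with the line of equal cover dashed. Of the 33, 24 lie above the line, many at an intron cover near 0%, and *dally*, *twin*, and 1 further gene (*bab1*) lie on the horizontal axis with no exon base covered.

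The 3′ end lay in a region in 18 members (36.7%) and the 5′ end in 10 (20.4%), compared with 37.1% and 27.2% of all protein-coding genes and with 36.5% and 20.1% of like-length genes. Only in *shg* did at least 50% of the region over the 5′ end lie in the member (63.4%). The other regions over a 5′ end lay mostly outside it, with 1.85% of the region in *Sxl*, 3.01% in *brat*, and at most 38.5%, in *bgcn*. For regions over a 3′ end this share ran from 6.95% in *alpha-Spec* to 100% in *N*. Among the 34 met members, 15 had the 3′ end alone in a region, 7 the 5′ end alone, 3 both (*bgcn*, *gbb*, and *dome*), and 9 neither. Both ends in regions were thus found in 8.82% of met members, as against 49.6% of those 5333 met protein-coding genes, where 34.2% had the 3′ end alone, 9.08% the 5′ end alone, and 7.18% neither. From like-length genes, 7.03 of the 49 members would have both ends in regions, against 3 counted. In the germline class the 3′ end was met in 4 of 18 and the 5′ end in 4 of 18, and in the signalling class in 14 and 6 of 31. From like-length genes, 6.03 germline factors and 11.9 niche and signalling genes would have the 3′ end in a region. The annotated end misses some cases, since *pum*, *Rbfox1*, *mei-P26*, and *chinmo* had much of the 3′ UTR in a region that stopped before it. The whole 3′ UTR was covered in 15 of the 34 met members (44.1%) and the whole 5′ UTR in 6 (17.6%), as against 79.0% and 52.7% of the 5333 met protein-coding genes with introns and both UTRs, which are not matched on length.

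**Figure D5:**
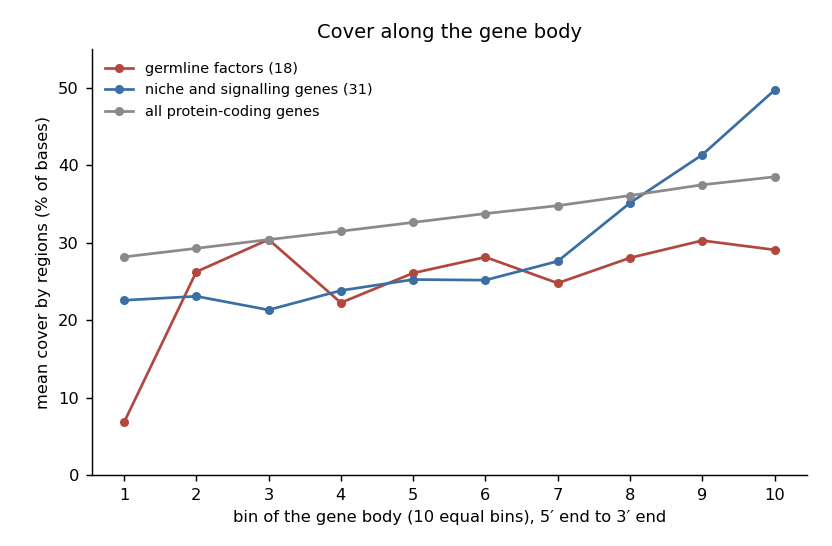
Mean percent of bases inside regions in 10 equal bins of the gene body, from the 5′ end to the 3′ end, for the 18 germline factors (red), the 31 niche and signalling genes (blue), and all protein-coding genes (grey). The niche and signalling genes ran from 22.6% in the first bin to 49.7% in the last, the germline factors from 6.80% to 29.1%, and all protein-coding genes from 28.2% to 38.5%. The grey line is not matched on gene length.

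Along the gene body, the niche and signalling genes had their highest cover in the last of 10 equal bins, at 49.7%, and 18 of the 31 had a base in a region there, compared with 9 in the first bin. The germline factors had 6.80% in the first bin, 26.2% in the next, and 29.1% in the last. All protein-coding genes had 28.2% in the first bin and 38.5% in the last, with an even increase between them. The 3′ weighting of the niche and signalling genes was thus in the direction of the whole gene set, and wider in range. The whole gene set is not matched on length, and the bins were not measured for like-length genes. At the ends alone, 38.2% of the like-length genes of this class had the 3′ end in a region and 20.6% the 5′ end. The members of the class had 45.2% and 19.4%.

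The 34 met members made 46 overlaps with 45 regions, where 24 members had 1 region, 8 had 2, and 2 had 3. These regions had a median width of 7143 nt, and all other regions 6469 nt. A region lay wholly inside the member in 20 overlaps, and in 29 at least 50% of the region lay in it. In 13 overlaps the region met no other gene, among them those of *pum*, *mei-P26*, *Rbfox1*, *N*, *Eip75B*, *bab1*, and *bab2*. In the others it is not known from the list which gene the reads came from. Counting a member as met only by a region with at least 50% of its width inside it left 23 members, 8 germline factors and 15 niche and signalling genes, and 5 members with at least 50% of the body covered.

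The overlaps also differed in TE content. Sorted by where most of their bases lay, 13 overlaps were mainly intronic and 33 mainly exonic. Annotated TE insertions occurred in 7 of the 13 mainly intronic overlaps and made up 13.6% of their bases, and in 1 of the 33 mainly exonic ones (*ci*), at 1.25% of the bases. The TE share of introns outside regions was not measured, so this split does not set covered introns apart from other introns. In *chinmo* a region of 2138 nt in an intron consisted of TE sequence over its full width, a *blood* retrotransposon. A *412* element made up 63.3% of the region in *bab1*, *flea* 42.3% of that in *twin*, *roo* 33.2% of the intronic region in *bab2*, and *297* 18.4% of the long region in *brat*. The intronic regions in *dally* and in *br* held no annotated insertion. Neither did the mainly intronic overlaps in *Sxl* and *arm*, that of 3012 nt in *chinmo*, and that of 30807 nt in *EcR*. In all, 12 members carried 27 insertions, 19 of which met a region (70.4%), compared with 68.0% of 2776 insertions in other protein-coding genes. Most of the 19 came from 2 overlaps, with 9 in the widest region of *EcR* and 4 in that of *ci*. Annotated insertions held 22191 of the 281955 member bases inside regions and 40555 of the 1219417 outside. Sequence marked as repeat in the reference, a different measure, made up 20.6% of the member bases inside regions and 20.0% of those outside. In *twin*, for example, 1182 bases inside the region were marked as repeat, whereas 3023 were annotated as TE. The insertions are those of the reference strain, and the flies and cells sequenced may carry others.

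Since the list has no strand, the base at each border was read on the strand of the gene. Borders inside a single protein-coding gene and no other gene were used. On the 5′ side of the region, the first base inside was a T at 17 of 31 borders in members (54.8%, 95% Wilson interval 37.8% to 70.8%) and at 50.1% of 2812 borders over all protein-coding genes (48.3% to 52.0%). At a point 20 nt further inside, T made up 25.8% in members and 26.2% over all. On the 3′ side, the last base inside was an A, the complement of a T on the other strand, at 6 of 24 borders in members (25%, 12% to 44.9%) and at 34.0% of 1548 borders over all genes, where the point 20 nt inside had 31.7% A. The base just outside the 3′ side was a T at 8 of 24 borders in members (33.3%) and at 42.8% over all.

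Read on the forward strand instead, 18 of the 45 regions that met a member began with T (40%, 27.02% to 54.5%) and 18 ended with A, compared with 43.3% and 43.4% of the 3311 other regions. T made up 29.1% of all bases inside regions. The intervals cover counting error only. With 31 and 24 borders in members, these intervals are wide, and each of them includes the share over all genes.

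Further genes of the same and related pathways, 74 in number, were measured in the same way. Of these 53 were met and 29 had at least 50% of the body covered, where protein-coding genes of the same arm and like length gave 39.4 and 21.9. The 5′ end lay in a region in 24 of the 74 and the 3′ end in 41. Over all protein-coding genes, 43.8% were met, and the 5′ and 3′ ends were met in 27.2% and 37.1%. Other germline genes were met in 17 of 20 cases (10.5 from like-length genes) with a median cover of 66.9%, including *me31B*, *stil*, *Ote*, and *vls* at 100%, whereas *enc*, *exu*, and *bcd* had none. The BMP list was met in 7 of 15 (8.26 from like-length genes), with the ligand gene *mav*, *brk*, and *Cul2* at 100% and the ligand gene *scw* and the receptor gene *wit* at 0%. This list was drawn broadly. It includes *babo* (68.2%), *Smox* (76.3%), and *daw* (0%) of the related Activin branch and the kinase genes *lic* and *Tak1* (0%). The JAK/STAT list was met in 4 of 6 (3.49 from like-length genes), with *Su(var)2-10* at 100% and the ligand genes *upd2* and *upd3* at 0%. The Hedgehog list was met in 7 of 9 (4.28 from like-length genes), from 100% in *cos*, *Su(fu)*, *ihog*, *disp*, and *rasp* to 0% in *fu* and *boi*. The Notch and EGFR list was met in 12 of 16 (8.44 from like-length genes), from *kek1* at 100% to *Ser*, *Su(H)*, *Krn*, and *rho* at 0%, with the EGFR ligand genes *spi* at 34.7% and *vn* at 13.3%. The ecdysone list was met in 6 of 8 (4.42 from like-length genes), with none at 50% or more, *tai* the highest at 18.03%, and *Eip74EF* and *Hr3* at 0%.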

How the data were processed

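The study sequenced small RNA libraries of 6 groups and deposited 1 list of 3356 regions, given as positions on the dm6 chromosomes. The Discussion of the paper gives 3356 as its number of new clusters, found in addition to the canonical ones. A sentence of its Results gives a slightly higher number. In the authors' processing, adapters were trimmed, reads were mapped to TE sequences with Bowtie2, the remaining reads were mapped to the genome with Bowtie, and the genome was scanned with a sliding window. Regions of low density were dropped, neighboring regions merged, and short regions dropped, so that the narrowest deposited region is 2002 nt. Because multi-mapped reads were used in the discovery of clusters, regions in repeated sequence can hold reads that belong elsewhere. Which libraries were scanned together is not given in the sources used here. Libraries of mRNA were not used.

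Regions were intersected with gene models of Ensembl release 115, which shares its coordinates with the reference sequence: 30571 of 30630 annotated whole start codons read ATG. An overlap counted from 1 shared base. Exons are those of any transcript, and UTR and coding bases can overlap between transcripts. TE insertions were not counted as genes. For each member, the 100 non-member protein-coding genes of its arm nearest in log length gave the expectation. The members, the classes, and the lists were chosen with earlier results of these data known. No test was run, since the list has no samples. All members are accounted for in the text. Full values were given to *bam*, *bgcn*, *tkv*, the 5 members with the largest overlap, those with none, those with at least 50% cover or both ends in regions, and the most and least covered members of each role. The overlap code was checked on simulated data. Alternatives changed the minimum width, the overlap required, the gene model, the class of the BMP genes, the arms, the merging of regions, and the number of like-length genes. Python 3.11.15 and SciPy 1.17.1 were used.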

Additional observations from a re-analysis of the deposited data

How the results depend on the processing

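Of the alternatives to 13 results, 94 left the value within the limit set for it, and 13 did not. The limit was 1.5 times for counts and the spread between arms for percents of bases. For the share of regions beginning with T it was the 95% Wilson interval of the main value. Keeping only regions of at least 10000 nt gave 15 members met, 6 of them germline factors and 9 niche and signalling genes, 5 with the 5′ end and 7 with the 3′ end in a region, 21.1% of exon bases covered, an expectation of 11.4 from like-length genes, and 58.8% of regions beginning with T. With regions of at least 5000 nt, 6 members had the 5′ end in a region. Counting exon bases alone gave 20 members with at least 50% cover, and leaving out the genes on 2R gave 8. Using only regions that lie to at least 50% inside the member, an alternative chosen after seeing the data, gave 5 members with at least 50% cover and 15 niche and signalling genes met. The spread between arms is wide, so moves of the medians count as small: the median over all members (11.8%) was 3.75% at the 5000 nt minimum, 0% at 10000 nt, and 30.1% over exon bases, the germline median (3.33%) was 0%, 0%, and 22.4%, and the niche and signalling median (17.4%) was 10.2%, 0%, and 30.1%. All 3 medians were 0% with only regions at least 50% inside the member. Counting the 3 BMP receptors and the 4 BMP transducers and inhibitors as germline gave 16 germline factors and 18 niche and signalling genes met. The medians of these classes were then 5.10% and 21.0%, also within the limits. The median cover over all members was 25.02% without the genes on 3R, 23.6% without those on 3L, and 6.69% without those on 2R, and that over niche and signalling genes was 10.2% without those on 2R. The expectation from like-length genes was 26.03 with 30 genes, 25.8 with 300 genes, and 25.3 without genes near the centromeric ends. No paired analysis was possible because no sample enters the list of regions. The depth behind each region is unknown, so a gene at 0% may have reads below the authors' density limit.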

Other observations

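Distances show how near some of the unmet genes lie to a region. Of the 15 members with no shared base, *Med* (139 nt), *bam* (630 nt), and *orb* (809 nt) lay nearest to one, and *Dl* (120395 nt), *stwl* (114438 nt), and *upd1* (66504 nt) lay farthest from any. By arm, 5 of 13 members on 3R were met (5.91 from like-length genes), 6 of 7 on 2L (3.57), 8 of 10 on 2R (6.14), 6 of 8 on 3L (4.25), and 8 of 10 on X (5.47).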
